A study of Mus musculus with 8 samples.

Results

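The genes described here encode thin filament, Z-disc and light chain proteins of the sarcomere, the contractile unit of striated muscle. They are 40 listed genes, chosen by name, and all 40 were among the 19752 genes with a value on the arrays. All 40 also passed the filter on dim genes and belong to the 14814 genes tested. RNA came from the whole tibialis anterior of old C57BL/6 males, given as 22 months old in the design text and 99 weeks old in the sample labels. All muscles had been cryoinjured with a metal probe chilled in liquid nitrogen, held on for 8 seconds, and were collected 8 days later. The 4 rIL-33 arrays came from mice injected intraperitoneally with 2 µg of recombinant interleukin 33 on the day before and again on the day after injury, and the 4 PBS arrays carry the treatment label PBS. No transgene is named for any group. Within each group, replicates 1 and 2 are labelled C57BL/6 for genetic background and replicates 3 and 4 are labelled WT, and no source used here explains how the 2 labels differ. Whether every array represents a different mouse is not stated, so the p-values reflect only array-to-array spread, which may be technical.

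In the thin filament, actin polymers carry tropomyosin and the troponin complex, which opens the myosin binding sites when calcium binds troponin C. Nebulin, leiomodins and tropomodulins set the length and the ends of these filaments, the myosin light chains brace the lever arm of the myosin head, and the Z-disc anchors thin filaments of neighbouring sarcomeres through alpha-actinin. Many of these proteins exist as fast, slow and developmental isoforms, and regenerating fibres pass through the developmental set before adult isoforms take over. A further group at the Z-disc and on titin, with Csrp3, Ankrd1 and Ankrd2, is known for its induction by mechanical load or injury.

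Upstream sequence is shown for the genes that the comparisons below turn on: Ankrd2, whose treatment difference had opposite signs under the 2 genetic background labels, Ankrd1, its paralogue with the widest range over the arrays, Actc1, the developmental actin gene, and Mylpf, the light chain gene that differed most between the labels. Each line holds the 250 bases before the RefSeq start site, 5′ to 3′ on the gene's strand (GRCm38.p6), at chr19:42035777-42036026 (plus strand), chr19:36119845-36120094 (minus), chr2:114052876-114053125 (minus) and chr7:127211358-127211607 (plus). Capitals mark matches, on either strand, to the E-box CANNTG read by myogenic basic helix-loop-helix factors, to the MCAT element CATTCC read by TEAD factors, to the TATA box in the form TATAAA and to the CArG box of serum response factor.
Ankrd2: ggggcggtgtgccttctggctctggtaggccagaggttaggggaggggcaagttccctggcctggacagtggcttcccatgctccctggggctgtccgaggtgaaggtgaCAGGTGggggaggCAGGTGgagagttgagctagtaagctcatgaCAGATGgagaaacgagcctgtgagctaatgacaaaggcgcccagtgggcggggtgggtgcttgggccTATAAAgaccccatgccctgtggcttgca
Ankrd1: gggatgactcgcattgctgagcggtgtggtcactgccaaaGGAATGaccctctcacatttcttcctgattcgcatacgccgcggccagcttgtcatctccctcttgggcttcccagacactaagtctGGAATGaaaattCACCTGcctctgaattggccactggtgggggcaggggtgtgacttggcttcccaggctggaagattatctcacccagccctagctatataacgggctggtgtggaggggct
Actc1: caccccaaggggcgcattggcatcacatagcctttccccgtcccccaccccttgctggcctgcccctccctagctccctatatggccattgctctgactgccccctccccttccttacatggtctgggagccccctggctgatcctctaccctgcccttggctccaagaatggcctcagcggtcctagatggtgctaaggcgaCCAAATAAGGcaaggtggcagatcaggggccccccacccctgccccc
Mylpf: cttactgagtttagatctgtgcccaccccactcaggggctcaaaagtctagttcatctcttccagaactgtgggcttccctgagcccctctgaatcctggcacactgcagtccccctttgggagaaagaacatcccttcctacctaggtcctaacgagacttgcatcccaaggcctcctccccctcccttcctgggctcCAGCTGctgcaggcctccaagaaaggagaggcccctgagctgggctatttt

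Motifs were searched in 36 such windows, which cover 30 of the 40 genes. Of these windows 31 had an E-box, against 66.2% of all 32851 windows, and 10 had MCAT, against 12.6%. TATAAA was in 6 windows, Ankrd2 among them, and in 12.4% of all. A CArG box was in 5 of the 36 windows, those of Acta1, Actc1 and Myl3 and the overlapping pair of Ldb3, and in 1.47% of all windows. The MEF2 motif was in 3 (Myoz2, Ttn and Xirp2), against 1.69%. Ankrd2 had 3 E-boxes, Ankrd1 had 1 E-box and 2 MCAT matches, Mylpf had 1 E-box, and Actc1 had the CArG box alone of these motifs. A match is a run of letters, not a measured binding site.

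The tissue carried the transcripts of muscle fibres under both treatments. All 10 muscle fibre markers were tested, the dimmest being Cacna1s at a mean log2 intensity of 12.08, and markers of fibroblasts, macrophages, endothelium and smooth muscle were measured beside them. Median intensity lay between 222.6 and 232.2 on all 8 arrays. The 25th percentile of intensity differed by label, from 88.3 to 93.8 on C57BL/6-labelled arrays and from 97.1 to 107.3 on WT-labelled ones. Label results under 2 other normalizations are given further on. The sarcomere genes were bright: 21 of the 40 had a mean at or above the 99th percentile of all genes, and the dimmest, Myl2, lay at percentile 58.7. The brightest genes of the list had the smaller spread, with a median SD over the 8 arrays of 0.09 on the log2 scale in those 21. It was 0.23 in the other 19 and 0.14 over all genes tested. Whether the top of the intensity range compressed differences between arrays was not tested.

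With rIL-33, no sarcomere gene of the list passed the threshold of 0.05 on the limma adjusted p. The lowest adjusted p among them was 0.489, and 1 of all 14814 genes (0.00675%) passed. At an unadjusted p under 0.05 stood 2 of the 40, Myoz3 and Ldb3, where 9.63% of all genes tested did. With the label C57BL/6 or WT added to the fit as a block the count was 5 (Mylpf, Mybpc1, Mybph, Myoz3 and Ldb3) and the share of all genes 15.1%, again with 0 of the 40 past the adjusted threshold. In Mybpc1, Ttn and Neb, 3 of the 40, the lowest rIL-33 array exceeded the highest PBS array, beside 4.57% of all genes whose groups did not overlap in either direction. By sign alone 25 of the 40 had a higher mean with rIL-33, against 48.0% of all genes. The median difference, rIL-33 minus PBS on the log2 scale, was 0.05 over the 40 genes and -0.01 over all genes. None of these shares is a test of the list. Individual differences ran from -0.45 (Csrp3) to 0.35 (Myoz3), at most a 1.36-fold ratio.

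**Figure D1:**
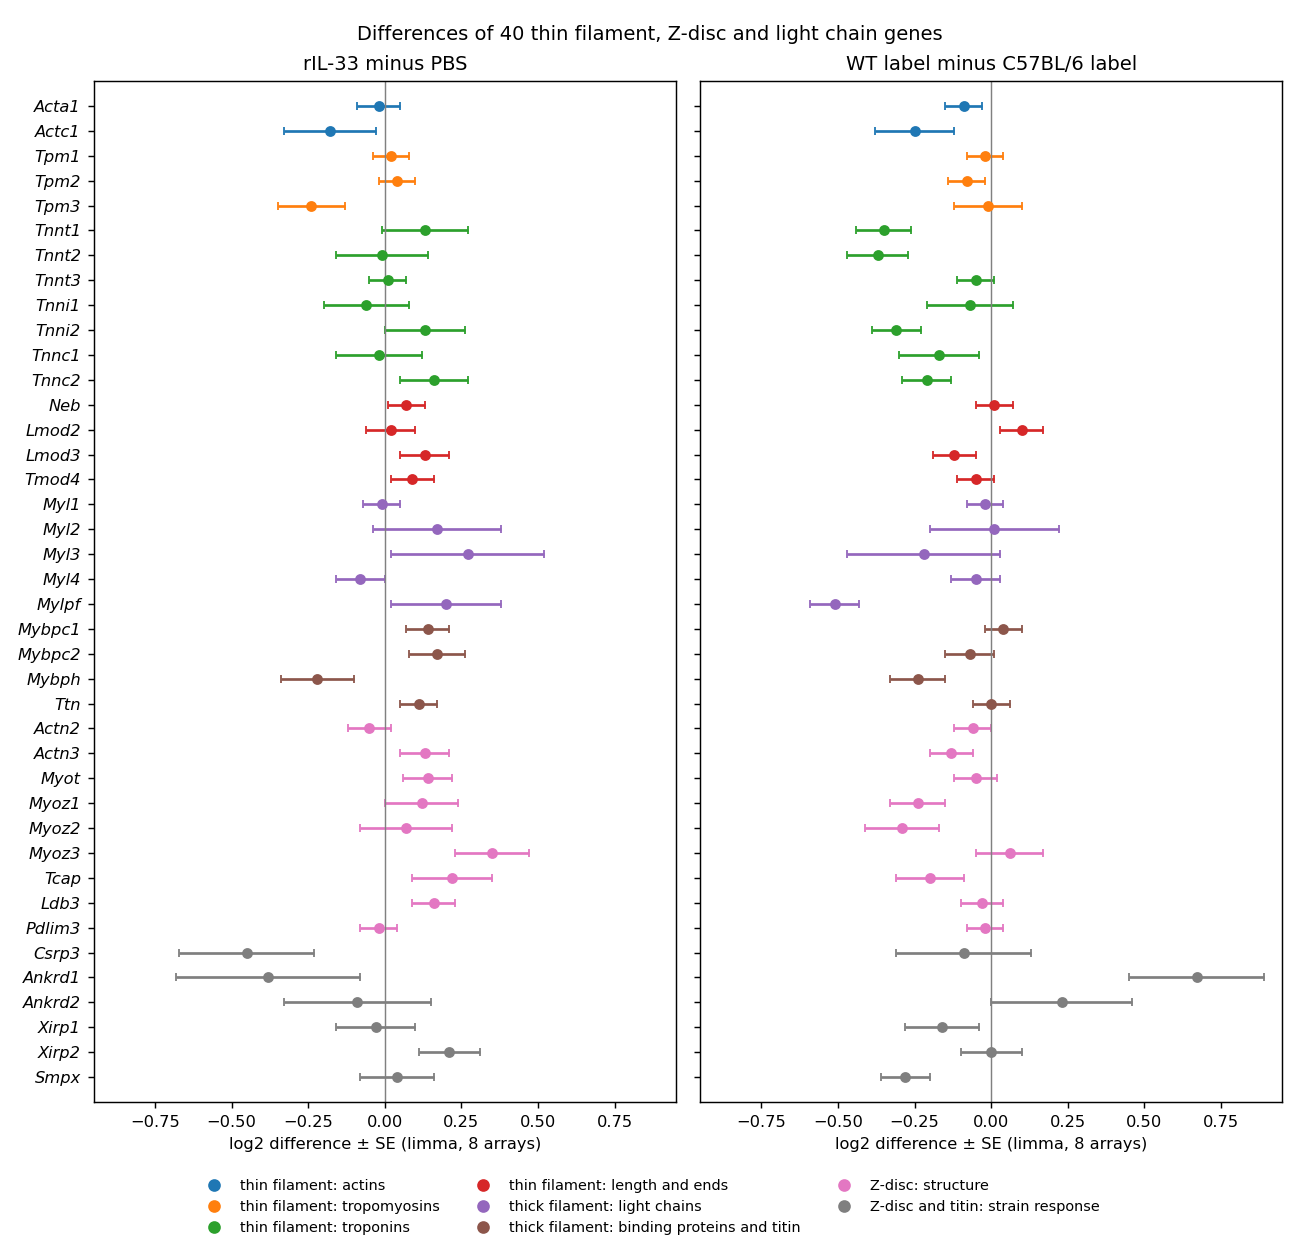
Log2 differences of the 40 genes (points) with the standard error of the limma fit (bars), ordered and coloured by role; left, rIL-33 minus PBS, right, arrays labelled WT minus arrays labelled C57BL/6, each from 8 arrays. Treatment differences lie between -0.45 and 0.35, while Mylpf (-0.51) and Ankrd1 (0.67) stand out on the right.

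Both actin genes had small differences. Acta1 encodes the adult skeletal actin and had a mean log2 intensity of 13.91 ± 0.09 in the PBS group and 13.89 ± 0.03 in the rIL-33 group (SD, n = 4 each). Actc1, the actin of heart and of developing and regenerating skeletal muscle, measured 13.49, 13.39, 13.33 and 13.24 on PBS replicates 1 to 4 and 13.22, 13.50, 12.69 and 13.34 on rIL-33 replicates 1 to 4. Its rIL-33 arrays thus ran from the highest value of all (replicate 2) to the lowest (replicate 3). The difference was -0.18 (SE 0.15, 95% interval -0.52 to 0.16), and -0.01 without rIL-33 replicate 3. The coding sequences of actin genes are very similar, so signal shared between their probe sets is possible and was not tested.

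Tropomyosin genes of adult fibres barely varied. Tpm1 (alpha) and Tpm2 (beta) spanned 0.09 and 0.14 over all 8 arrays and differed between treatments by 0.02 (SE 0.06) and 0.04 (SE 0.06). Tpm3, which encodes the slow muscle tropomyosin and also non-muscle forms, was at 11.55, 11.39, 11.34 and 11.66 with PBS and at 11.15, 11.40, 11.03 and 11.41 with rIL-33. The groups overlapped, and the difference of -0.24 (SE 0.11, limma adjusted p = 0.519) was the lower-side difference with the smallest p among the 40 genes. Of the 3 probe sets for Tpm3, the brightest gave this value and the others 0.06 and -0.08, so the probe sets disagreed in sign. RefSeq also lists pseudogene copies of Tpm3, and signal from such copies cannot be told apart here.

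None of the 7 troponin genes passed the threshold (limma adjusted p between 0.634 and 0.996), and 4 of the 7 differences were positive. Of the fast troponins, Tnnc2 (troponin C) was at 13.12, 13.19, 12.87 and 12.77 with PBS and 13.29, 13.11, 13.20 and 13.02 with rIL-33; the difference was 0.16 (SE 0.11). Tnni2 (troponin I) was at 12.90, 12.91, 12.57 and 12.38 with PBS and 13.01, 12.82, 12.80 and 12.65 with rIL-33; the difference was 0.13 (SE 0.13). In both genes the lowest values were those of PBS replicates 3 and 4. Tnnt3 (troponin T) was nearly flat, at 13.81, 13.79, 13.74 and 13.70 with PBS and 13.80, 13.76, 13.79 and 13.73 with rIL-33 (0.01, SE 0.06).

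Slow troponin genes overlapped between the groups. Tnnt1 was at 9.71, 9.61, 9.50 and 9.39 with PBS and 9.84, 10, 9.32 and 9.55 with rIL-33, so the rIL-33 arrays held both the highest and the lowest value. Tnni1 was at 11.47, 11.22, 11.44 and 11.25 with PBS and 11.11, 11.61, 10.94 and 11.50 with rIL-33. Tnnc1, the troponin C of slow and cardiac muscle, was at 10.12, 9.58, 9.81 and 9.78 with PBS and 9.82, 10.05, 9.45 and 9.87 with rIL-33. The differences were 0.13 (SE 0.14), -0.06 (SE 0.14) and -0.02 (SE 0.14). Tnnt2, the troponin T of heart and of immature fibres, was at 12.24, 11.98, 11.74 and 11.75 with PBS and 11.96, 12.25, 11.55 and 11.92 with rIL-33. Its group means were 11.93 and 11.92. The 95% interval of that difference, -0.35 to 0.33, leaves room for a change in either direction.

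Genes that fix the length and ends of thin filaments all had positive differences, none past the threshold. Neb, the nebulin ruler along the filament, was at 13.68 to 13.73 with PBS and 13.74 to 13.81 with rIL-33, a gap between the groups within a total span of 0.13. The difference was 0.07 (SE 0.06, limma adjusted p = 0.746). Lmod3 and Tmod4, a nucleator and a pointed-end cap of skeletal muscle filaments, differed by 0.13 (SE 0.08) and 0.09 (SE 0.07). Lmod2 was at 10.71, 10.63, 10.88 and 10.81 with PBS and 10.65, 10.86, 10.83 and 10.75 with rIL-33, overlapping fully (0.02, SE 0.08).

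The slow and ventricular light chain genes Myl2 and Myl3 had the widest spread of the light chain group. Myl2 was at 7.71, 8.37, 8.47 and 8.21 with PBS and 8.46, 8.54, 8.67 and 7.76 with rIL-33. Myl3 was at 7.89, 8.76, 8.10 and 8.56 with PBS and 9.22, 8.44, 8.74 and 8.01 with rIL-33. In both genes PBS replicate 1 and rIL-33 replicate 4 were the lowest arrays of their groups. Differences of 0.17 (SE 0.21) and 0.27 (SE 0.25) therefore lay within the spread, and Myl3 ranged from -0.03 with array weights to 0.47 without rIL-33 replicate 4.

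The other light chain genes did not pass the threshold either. Myl1, the essential light chain of fast fibres, was at 13.78, 13.73, 13.76 and 13.65 with PBS and 13.75, 13.67, 13.72 and 13.71 with rIL-33 (-0.01, SE 0.06). Mylpf, the regulatory light chain of fast fibres, was at 12.37, 12.35, 11.78 and 11.64 with PBS and 12.55, 12.31, 12.07 and 12.03 with rIL-33; the difference was 0.20 (SE 0.18, 95% interval -0.20 to 0.61). Myl4, the embryonic and atrial essential light chain, was at 13.44, 13.35, 13.42 and 13.36 with PBS and 13.25, 13.47, 13.16 and 13.38 with rIL-33 (-0.08, SE 0.08). As for Actc1 and Tnnt2, rIL-33 replicate 2 was the highest and replicate 3 the lowest of the rIL-33 arrays in Myl4.

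Among proteins bound to the thick filament, Mybpc1 was at 13.00, 13.07, 13.18 and 13.08 with PBS and 13.25, 13.20, 13.26 and 13.18 with rIL-33. It encodes slow myosin binding protein C, and every rIL-33 array was above every PBS array by a margin that is small at the lower edge. The difference was 0.14 (SE 0.07, limma adjusted p = 0.525). Ttn, which encodes the titin spring from Z-disc to M-line, was at 13.48 to 13.55 with PBS and 13.59 to 13.66 with rIL-33 (0.11, SE 0.06, limma adjusted p = 0.596). Mybpc2, the fast binding protein C, differed by 0.17 (SE 0.09). Mybph, the related protein H, was at 10.57, 10.30, 10.15 and 10.09 with PBS and 10.08, 10.19, 9.81 and 10.14 with rIL-33. Its groups overlapped, with PBS replicate 1 highest and rIL-33 replicate 3 lowest (-0.22, SE 0.12).

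Structural Z-disc genes were mostly higher by sign with rIL-33, in 7 of 9, with a median difference of 0.13 and adjusted p between 0.489 and 0.943. Myoz3, of the calsarcin family that links alpha-actinin to calcineurin, was at 10.65, 10.97, 10.64 and 10.87 with PBS and 11.20, 10.88, 11.35 and 11.07 with rIL-33. Of the rIL-33 arrays only replicate 2 lay inside the PBS range, and the difference of 0.35 (SE 0.12, 95% interval 0.09 to 0.60, limma adjusted p = 0.489) was the highest of the 40 genes. Ldb3 (Cypher or ZASP), a PDZ-LIM protein of the Z-disc, was at 12.02, 12.17, 12.08 and 12.05 with PBS and 12.29, 12.23, 12.32 and 12.14 with rIL-33 (0.16, SE 0.07, limma adjusted p = 0.511). Its groups overlapped through PBS replicate 2 and rIL-33 replicate 4 alone. The titin cap gene Tcap differed by 0.22 (SE 0.13), myotilin (Myot) by 0.14 (SE 0.08) and the fast alpha-actinin gene Actn3 by 0.13 (SE 0.08). Myoz1 differed by 0.12 (SE 0.12), Actn2, the alpha-actinin of all fibre types, by -0.05 (SE 0.07), and Pdlim3, another PDZ-LIM gene, by -0.02 (SE 0.06).

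Among genes known for their response to strain, Ankrd1, Csrp3 and Ankrd2 ranged over 1.52, 1.04 and 1.02 across the 8 arrays. Csrp3 (muscle LIM protein) was at 9.92, 8.97, 9.79 and 9.75 with PBS and 9.15, 9.67, 8.88 and 8.93 with rIL-33. The groups overlapped through 1 array each: PBS replicate 2 sat among the low rIL-33 arrays and rIL-33 replicate 2 near the high PBS arrays. The difference was -0.45 (SE 0.22, limma adjusted p = 0.543), or -0.66 without PBS replicate 2. Ankrd1 (CARP), a titin-associated ankyrin repeat protein, was at 11.43, 10.18, 11.70 and 11.69 with PBS and 10.47, 10.82, 11.05 and 11.15 with rIL-33. PBS replicate 2 was again the low exception, under all 4 rIL-33 arrays. The difference was -0.38 (SE 0.30, limma adjusted p = 0.715), or -0.73 without that array (limma adjusted p = 0.317).

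The remaining genes of this group had smaller differences between treatments. Xirp2 (myomaxin), an actin-binding repeat protein, differed by 0.21 (SE 0.10), Xirp1 by -0.03 (SE 0.13) and Smpx, a small muscle protein of costameres, by 0.04 (SE 0.12). In Xirp1 replicate 2 was again the lowest PBS array (9.62) and the highest rIL-33 array (10.11). Ankrd2, the ankyrin repeat paralogue enriched in slow and stretched muscle, differed by -0.09 (SE 0.24). Its differences had opposite signs under the 2 background labels, as given further on, but did not differ past the threshold between them.

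**Figure D2:**
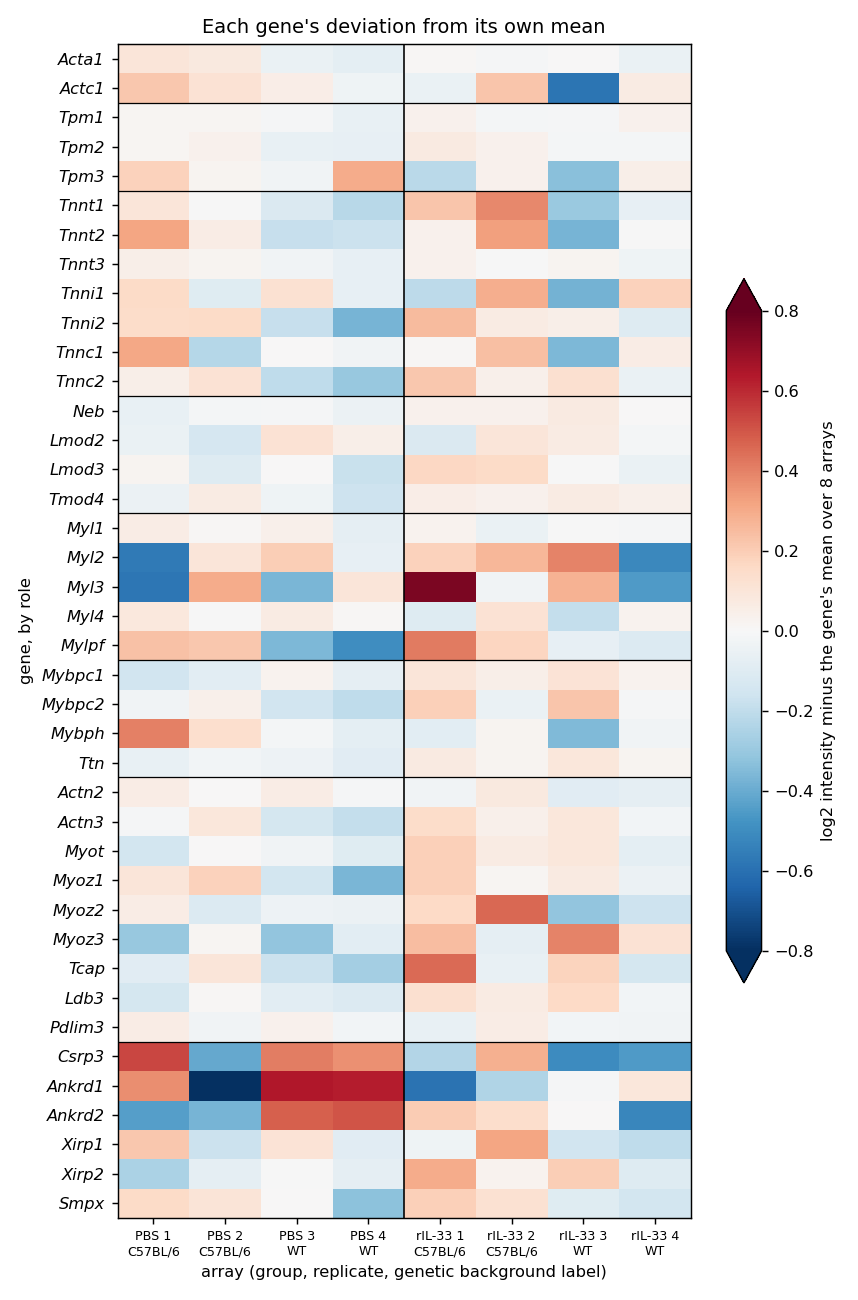
Deviation of each gene (rows, by role) from its own mean over the 8 arrays (columns, by group, replicate and genetic background label), in log2 intensity, red above and blue below. Csrp3 and Ankrd1 show PBS replicate 2 against the other PBS arrays, and Actc1, Tnnt1, Tnnt2, Tnni1 and Tnnc1 show rIL-33 replicate 3 as the low array.

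Grouped by isoform, fast genes (Actn3, Tnnt3, Tnni2, Tnnc2, Myl1, Mylpf, Mybpc2 and Myoz1) had a median difference of 0.13, with 7 of 8 positive, and 0.05 without PBS replicate 4. Slow genes (Tnnt1, Tnni1, Tnnc1, Myl2, Myl3, Tpm3 and Myoz2) had a median of 0.07, with 4 of 7 positive, and the sign turned to -0.08 without rIL-33 replicate 2. Mybpc1, of slow myosin binding protein C, was not in this class (difference 0.14), while Mybpc2 was in the fast one. The immature genes Actc1, Tnnt2 and Myl4 had a median of -0.08, with 0 of 3 positive, and -0.01 without rIL-33 replicate 3. The strain genes Csrp3, Ankrd1, Ankrd2, Xirp1 and Xirp2 had a median of -0.09, with 1 of 5 positive, and 0.03 without rIL-33 replicate 4. No gene of these classes passed the threshold. Array by array, the median deviation of the immature genes from their own means was 0.22, 0.05, 0.06 and -0.03 with PBS and -0.05, 0.22, -0.37 and 0.03 with rIL-33. That of the slow genes was 0.10, -0.01, -0.02 and -0.05 with PBS and 0.16, 0.27, -0.32 and -0.06 with rIL-33. In both classes rIL-33 replicate 2 was the highest and rIL-33 replicate 3 the lowest of the rIL-33 arrays. The fast genes ran 0.06, 0.10, -0.15 and -0.25 with PBS and 0.19, 0.02, 0.06 and -0.04 with rIL-33, the WT-labelled PBS arrays being the low ones.

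No marker of another cell type passed the threshold for treatment. All 8 fibroblast markers had lower means with rIL-33 (median -0.36, 0 past the threshold), and their summed intensity was 39331 to 45197 on PBS arrays and 27656 to 38145 on rIL-33 arrays. All 7 macrophage markers with a value were lower (median -0.25, 0 past the threshold; sums 13080 to 15774 with PBS and 9977 to 13694 with rIL-33), as were 5 of 6 endothelial markers (median -0.17) and 6 of 8 smooth muscle markers (median -0.11), a list that shares Des with fibres. All 10 muscle fibre markers were higher by sign (median 0.09, 0 past the threshold), with sums of 86807 to 97346 with PBS and 93658 to 103137 with rIL-33. Myoblast markers had a median of -0.03. At an unadjusted limma p under 0.05 stood 7 of 8 fibroblast, 3 of 7 macrophage and 3 of 6 endothelial markers. So did 1 of 8 smooth muscle, 1 of 10 muscle fibre and 0 of 7 myoblast markers, against 9.63% of all genes. Groups did not overlap in 4 fibroblast, 2 endothelial, 1 macrophage and 0 other markers, against 4.57% of all genes. These counts are not a test of the lists. No marker with a value fell under the dim limit. In whole tissue, fewer cells of a type and less RNA per cell cannot be told apart, and the part of these markers in the sarcomere values was not tested.

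Other sarcomere genes were compared by counts. Of 32 listed genes 31 were tested, and 0 passed the threshold for treatment in limma. At an unadjusted p under 0.05 stood 4 of the 31, against 9.63% of all genes. The median difference was 0.11, and 26 were positive, against 48.0% of all genes. These counts are not a test of the list. The 2 positive ones with the smallest p were Synpo2l, of the synaptopodin family at the Z-disc (0.24, SE 0.08), and the M-band gene Myom1 (0.25, SE 0.09), both with a limma adjusted p of 0.489. On the negative side they were Tpm4, a tropomyosin of non-muscle cells (-0.28, SE 0.15), and the cardiac troponin I gene Tnni3 (-0.07, SE 0.07). Among the heavy chains, the embryonic Myh3 and neonatal Myh8 differed by -0.04 (SE 0.19) and -0.05 (SE 0.16), fast Myh4 by 0.10 (SE 0.08) and slow Myh7 by 0.02 (SE 0.18). As in the immature genes of the list, Myh3 and Myh8 were highest on rIL-33 replicate 2 (11.26 and 11.81) and lowest on rIL-33 replicate 3 (10.28 and 10.94).

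More genes passed the threshold between the genetic background labels than between treatments. In a limma fit with treatment as a term, 4 of the 40 genes passed an adjusted p of 0.05, against 1392 of 14814 genes (9.40%). All 4, Mylpf, Tnnt1, Tnni2 and Smpx, fell on WT-labelled arrays relative to C57BL/6-labelled ones, a direction in which 6.20% of all genes passed. The 40 genes are thus close to the background here. Their median difference, WT label minus C57BL/6 label, was -0.07, against -0.02 over all genes, and 32 of 40 were negative, or 27 with quantile and 22 with cyclic loess normalization.

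Mylpf had the largest of the called differences, -0.51 (SE 0.08, limma adjusted p = 0.0165), a 1.43-fold ratio. Its level was 12.39 ± 0.11 on C57BL/6-labelled and 11.88 ± 0.20 on WT-labelled arrays (SD, n = 4 each), with every WT-labelled array below every C57BL/6-labelled one. Tnnt1 fell by 0.35 (SE 0.09, limma adjusted p = 0.0402) and Tnni2 by 0.31 (SE 0.08, limma adjusted p = 0.0472), from 9.79 ± 0.17 to 9.44 ± 0.10 and from 12.91 ± 0.08 to 12.60 ± 0.17. Smpx fell by 0.28 (SE 0.08, limma adjusted p = 0.0498), from 12.73 ± 0.04 to 12.45 ± 0.14. These 3 likewise had no overlap between labels, as had Tnnt2 and Tpm2, which did not pass. That makes 6 of the 40, against 20.2% of all genes. The slow Tnnt1 and the fast Mylpf and Tnni2 therefore lay on the same side.

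The calls depended on the normalization and on single arrays. Only Mylpf kept its call under quantile and cyclic loess normalization (limma adjusted p = 0.0332 and 0.0304). None of the 4 passed when any 1 of PBS replicates 1, 2, 3 or 4 or rIL-33 replicate 1 was left out, where Mylpf's adjusted p lay between 0.0534 and 0.0816, and 2 of the 40 passed without rIL-33 replicate 3 and 2 without rIL-33 replicate 4. Without rIL-33 replicate 2 all 4 passed, among 6 of the 40. Calls over all 14814 genes moved likewise, from 1392 with all arrays to between 10 and 111 in the settings where none of the 4 passed. They were 543 without rIL-33 replicate 3, 884 without rIL-33 replicate 4 and 2509 without rIL-33 replicate 2. Over the 8 arrays left out in turn the differences kept their sign, from -0.59 to -0.46 in Mylpf, from -0.40 to -0.28 in Tnnt1, from -0.37 to -0.25 in Tnni2 and from -0.35 to -0.21 in Smpx. Ankrd1 had the largest difference of the 40 in either direction, 0.67 higher on WT-labelled arrays (SE 0.22), but did not pass (limma adjusted p = 0.0772), and it was 0.38 without PBS replicate 2. On the higher side the next by p were Lmod2 (0.10, SE 0.07) and Ankrd2 (0.23, SE 0.23). Tnnt2 missed the threshold narrowly (-0.37, SE 0.10, limma adjusted p = 0.0506).

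Of the other sarcomere genes 0 of 31 passed for the label in limma, with 7 at an unadjusted p under 0.05, where 32.9% of all genes and 10 of the 40 stood. Nearest were Unc45b, a myosin chaperone (-0.33, SE 0.09, limma adjusted p = 0.0505), and the ubiquitin ligase gene Trim63 (MuRF1; -0.52, SE 0.16, limma adjusted p = 0.0594). On the higher side the 2 with the smallest p were Nebl (0.16, SE 0.08) and Pdlim5 (0.07, SE 0.06). Myoblast markers were lower on WT-labelled arrays in 7 of 7 and muscle fibre markers in 10 of 10 (medians -0.18 and -0.06, 0 past the threshold in both), with fibre sums of 94789 to 103137 on C57BL/6-labelled and 86807 to 102429 on WT-labelled arrays. Endothelial markers were lower in 4 of 6, 1 past the threshold. The part of these markers in the label differences was not tested.

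**Figure D3:**
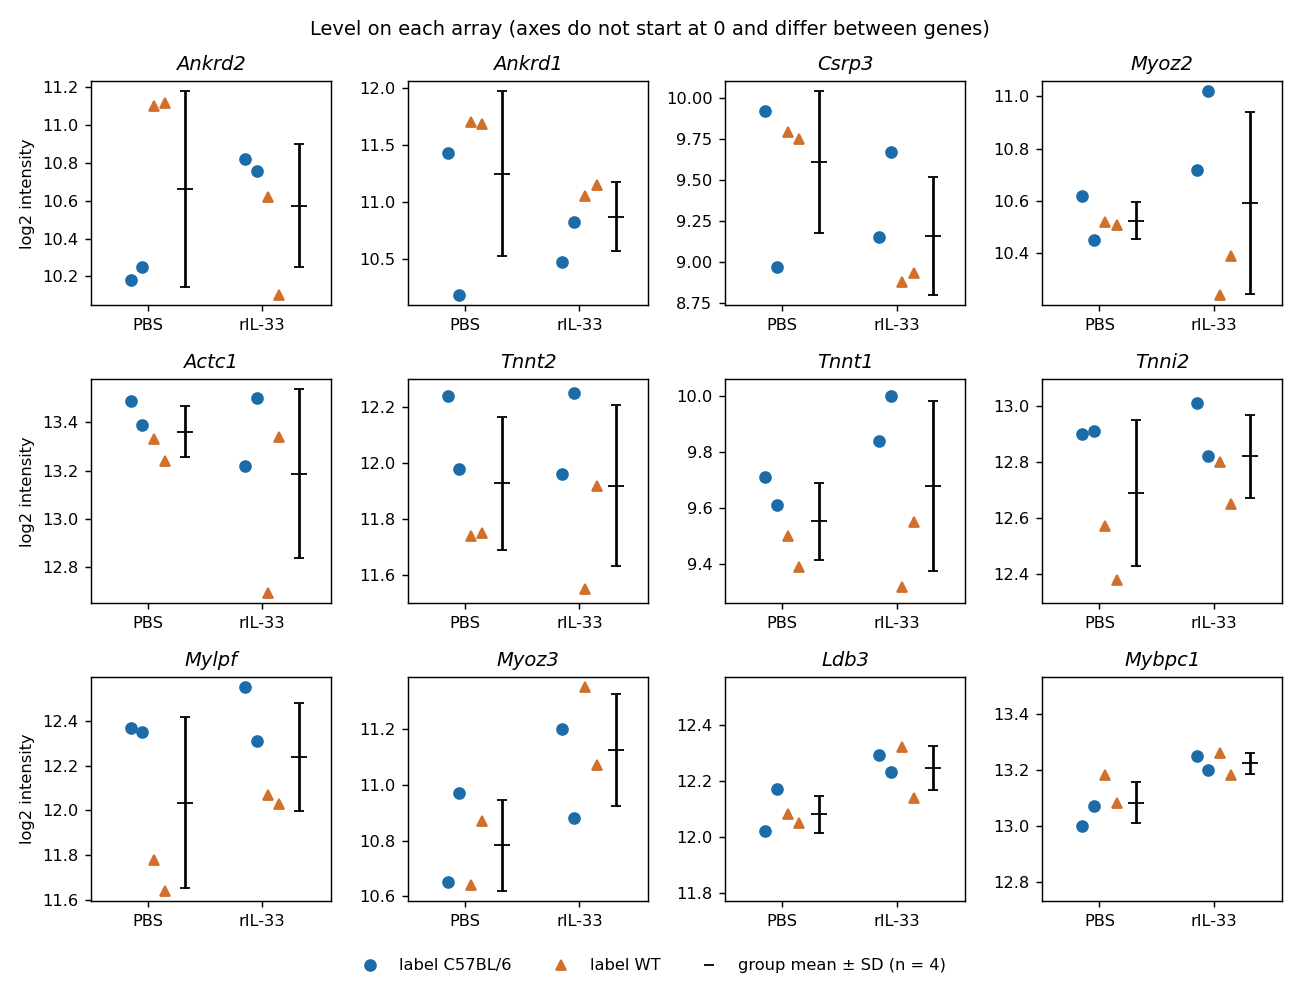
Log2 intensity of 12 genes on each array, PBS left and rIL-33 right in each panel, circles for the label C57BL/6 and triangles for WT, with group means ± SD (n = 4) in black. In Ankrd2 the WT-labelled PBS arrays (11.10 and 11.12) lie above the C57BL/6-labelled ones (10.18 and 10.25), while in Mylpf and Tnni2 the WT-labelled arrays are the low ones.

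Within each label, treatment was compared in a limma fit of 4 groups of 2 arrays that share 1 estimate of the spread. Within the C57BL/6 label 0 of the 40 genes and 0% of all genes passed the threshold, with 4 of the 40 and 4.62% of all genes at an unadjusted p under 0.05. Within the WT label 0 of the 40 passed, against 0.0473% of all genes, with 7 of the 40 and 12.3% of all genes at an unadjusted p under 0.05. The test of the difference between the labels' treatment effects called 0 of the 40 and 0% of all genes, and 2 of the 40 had an unadjusted p under 0.05, beside 3.19% of all genes.

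Ankrd2 had the smallest p of the 40 for this difference between labels. Under the label C57BL/6 it was at 10.18 and 10.25 with PBS and at 10.82 and 10.76 with rIL-33. Under the label WT it was at 11.10 and 11.12 with PBS and at 10.62 and 10.10 with rIL-33. Each rIL-33 array was thus above both PBS arrays under one label and below both under the other. The treatment difference was 0.57 (SE 0.15) within C57BL/6 and -0.75 (SE 0.15) within WT, and these differed by -1.32 (SE 0.21, limma unadjusted p = 0.000163, adjusted p = 0.660). Without rIL-33 replicate 3 the difference was -1.58 (limma adjusted p = 0.0408), with 1 array left for that treatment and label, assumed to vary like the others. Over all alternatives it ran from -1.58 to -1.06, with adjusted p up to 1.

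The layout of Ankrd2, with groups apart in opposite directions under the labels, was found in 3 of the 40 genes (Ankrd2, Myoz2 and Acta1) and in 3.57% of all genes tested. Myoz2, the calsarcin gene of slow and cardiac muscle, was at 10.62 and 10.45 with PBS and 10.72 and 11.02 with rIL-33 under the label C57BL/6, and at 10.52 and 10.51 with PBS and 10.24 and 10.39 with rIL-33 under WT. The treatment differences were 0.33 (SE 0.12) and -0.20 (SE 0.12), apart by -0.54 (SE 0.17, limma adjusted p = 0.999). Csrp3 differed by -0.03 (SE 0.27) within C57BL/6, where PBS replicates 1 and 2 stood far apart (9.92 and 8.97), and by -0.87 (SE 0.27) within WT, where both rIL-33 arrays lay below both PBS arrays. Its difference between labels was -0.83 (SE 0.38, limma adjusted p = 0.999).

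Several fast genes had the larger positive treatment difference within the WT label. By sign, the difference within WT exceeded that within C57BL/6 in 8 of 8 fast, 0 of 7 slow and 18 of all 40 genes. It did so too in 9 of 10 muscle fibre markers and 20 of 31 other sarcomere genes, but in only 1 of 6 myosin heavy chains, the fast Myh4. The median of this difference over all genes tested was 0.02. Whether it follows the isoform class was not tested. Mylpf differed by 0.07 (SE 0.11) within C57BL/6 and by 0.34 (SE 0.11) within WT, Tnnc2 by 0.04 and 0.29 (SE 0.11 each), Myoz1 by -0.03 and 0.27 (SE 0.11 each), Mybpc2 by 0.07 and 0.28 (SE 0.12 each) and Tnni2 by 0.01 and 0.25 (SE 0.11 each). None of these pairs differed past the threshold between labels (limma adjusted p = 0.999 each). Myoz3 was positive in both, by 0.23 and 0.46 (SE 0.16 each), and so was Ldb3, by 0.16 and 0.17 (SE 0.10 each). Tnnt1 (0.26 and -0.01), Myl2 (0.46 and -0.13) and Myl3 (0.50 and 0.04) had their larger value within C57BL/6.

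**Figure D4:**
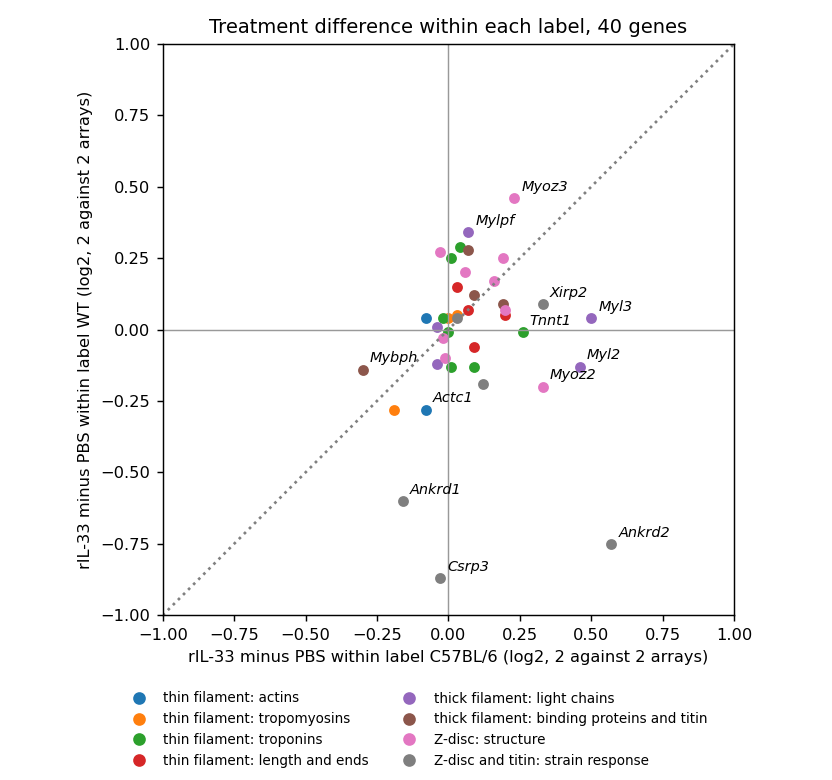
Treatment difference (rIL-33 minus PBS, log2) of the 40 genes within the label C57BL/6 (horizontal) and within the label WT (vertical), 2 against 2 arrays each, coloured by role; on the dotted line both are equal. Most genes lie near the origin, while Ankrd2 is at 0.57 and -0.75 and Csrp3 at -0.03 and -0.87.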

How the data were processed

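The authors deposited probe set intensities on a linear scale, made with RMA; the submitters' processing notes name Affymetrix Power Tools, without a version or build. RMA corrects background and equalises array distributions before it summarises probes, and signal from other sources compresses the folds of dim probe sets. The distributions of the deposited values were not equal, with a 25th percentile from 88.3 (PBS replicate 1) to 107.3 (PBS replicate 3). Log2 of the deposited intensities was taken. Of 24922 probe sets, 21425 had 1 gene symbol in the platform annotation, 1399 several and 2098 were unlisted; only the first were used, with the probe set of highest mean over the 8 arrays per gene. Genes under the 25th percentile of mean level (log2 intensity 6.65) were left out.

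Differences come from lmFit and eBayes of limma 3.58.1 (R 4.3.3) over all 14814 genes tested, adjusted by Benjamini-Hochberg, threshold 0.05: treatment on 8 arrays with no block; label with treatment as a term; treatment within labels from 4 groups of 2. The fit was tested on simulated data. All 40 genes are accounted for; values on each array are given for the 3 with the smallest p per direction (treatment, label) or for the difference between labels, the immature genes and the troponin and light chain isoforms; of other sarcomere genes, the 2 with the smallest p per direction, and 4 heavy chains. Alternatives covered normalization, dim filter, variance model, array weights, blocks, probe set choice, threshold and each array left out. The members and gene lists were chosen with earlier results of these data known. The number of arrays limits the precision. Upstream sequences are RefSeq's (GRCm38.p6). Figures were drawn with matplotlib 3.10.9.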

Additional observations from a re-analysis of the deposited data

Results flagged for a closer look

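In 3 genes both rIL-33 arrays lay above both PBS arrays under one genetic background label and below both under the other, as in 3.57% of all genes tested. The difference between the labels' treatment effects (WT minus C57BL/6) was -1.32 in Ankrd2, -0.54 in Myoz2 and 0.13 in Acta1. None passed the threshold in limma (adjusted p = 0.660, 0.999 and 0.999). Acta1 was at 14.00 and 13.98 with PBS and 13.91 and 13.89 with rIL-33 under C57BL/6. Under WT it was at 13.85 and 13.82 with PBS and 13.90 and 13.85 with rIL-33. There PBS replicate 3 and rIL-33 replicate 4 are equal at this rounding, so the gap is very small. Of 80 sets of 4 arrays (each gene in each group), 0 had a single array beyond Dixon's 95% critical value, where chance gives about 4.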

How the results depend on the processing

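For treatment, 0 of the 40 genes passed under all 18 alternatives, and the sign changed in 35 of 720 values of single genes, in 13 genes, the largest of which was Myl3 at 0.27. With the replicate block 0 genes of all passed instead of 1. Same-numbered arrays deviated together in replicates 1, 3 and 4 (r = 0.44, 0.43 and 0.54 over genes) but not in replicate 2 (-0.19). The highest value, 0.63, was between PBS replicate 2 and rIL-33 replicate 1. Same-numbered arrays also share a background label, which was not removed here, so the numbers were not taken as pairs. Leaving out 1 array gave 1 to 2 genes called. For the label, 1392 genes and 4 of the 40 passed. These counts were 415 and 1 with quantile normalization and 471 and 1 with cyclic loess, and the median over the 40 genes was then -0.03 and -0.01. The share of lower calls over all genes was 66% as reported, 73.7% with quantile and 74.5% with cyclic loess normalization. Without the dim filter 2 of the 40 passed, the filter at the 50th percentile gave 892 genes, array weights 3432 and 9, and a threshold of 0.1 gave 3364 and 7. Leaving out 1 array gave 10 to 2509 genes and 0 to 6 of the 40. Ankrd2 was the 1 gene of the 40 that passed within the WT label or for the difference between labels, when rIL-33 replicate 3 was left out (counts of 0 to 1 over arrays left out). The cause of these shifts was not tested. The genes of the 40 at an unadjusted p under 0.05 for treatment numbered 1 to 6 over the alternatives. With 2 arrays per treatment and label, a missed threshold does not show that values were equal.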

Other observations

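The lowest and the highest array of these genes were counted. PBS replicate 4 was the lowest array in 16 of the 40 genes (40%, against 10.9% of all genes tested) and rIL-33 replicate 3 in 11 (27.5%, against 17.2%). The highest array was rIL-33 replicate 1 in 13 genes (32.5%, against 19.4%) and rIL-33 replicate 2 in 8 (20%, against 4.27%). PBS replicate 1 was the lowest in 7 genes and the highest in 7, and rIL-33 replicate 3 was also the highest in 7 (17.5%, against 11.9%). PBS replicate 4 was the lowest array in fast genes such as Mylpf (11.64), Tnni2 (12.38) and Myoz1 (12.47), and rIL-33 replicate 3 in slow and immature ones such as Actc1 (12.69), Tnnt2 (11.55) and Tnni1 (10.94). In the slow gene Myl2 it was instead the highest of all 8 (8.67), and in Myl3 it was the third highest (8.74), with PBS replicate 1 lowest in both. Trim63 and Unc45b had their lowest value on PBS replicate 4 too (8.63 and 9.81). On PBS replicate 4 fibroblast and macrophage markers deviated by a median of 0.32 and 0.41 from their own means, and on rIL-33 replicate 3 by -0.44 and -0.38. The part of these cells in the order of the arrays was not tested.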
